A study of Mus musculus with 45 samples.

Results

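The genes of the leukemia inhibitory factor (LIF) pathway were examined in mouse induced pluripotent stem cell (iPSC) lines that differed in their cell of origin and passage and were all grown with LIF. The 9 genes were the receptor chains Lifr, Il6st and Osmr, the kinase Jak1, the transcription factor Stat3, and the target and feedback genes Socs3, Bcl3, Pim1 and Pim3. They were taken by symbol from the array annotation, as every probe set paired with 1 of these symbols and no other. This gave 9 of the 12716 genes named on either array platform. They were read by 17 of 22690 probe sets in the table of passages 4, 6 and 16, and by 23 of 22690 in the table of passage 10. The iPSC lines were derived with a secondary reprogramming system from skeletal muscle precursors (SMP-iPSC), T cells (T-iPSC), B cells of the spleen (B-iPSC), granulocytes of the bone marrow (Gra-iPSC) and fibroblasts of the tail tip (TTF-iPSC). Mouse 2 gave TTF-iPSC, B-iPSC, T-iPSC and Gra-iPSC at passages 4, 10 and 16. Mouse 1 gave Gra-iPSC at passages 4 and 16 and SMP-iPSC at passage 6. Each of the 15 groups held 3 clones, with 1 array a clone, and all 45 cultures were kept in serum and LIF on irradiated embryonic fibroblasts that were then removed by preplating. The strain, sex, age and alleles of the 2 mice are not given in the sources used here. No culture without LIF was analysed here, and the 3 clones of each group came from 1 mouse, so the p-values rest on the variation among clones and say nothing about variation among animals.

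LIF binds its receptor LIFR, which then pairs with the shared signalling chain gp130, the product of Il6st. Kinases bound to these chains, JAK1 chief among them, phosphorylate STAT3, which enters the nucleus and switches on its targets, and 1 of these targets, SOCS3, binds the receptor complex and shuts it down. In mouse embryonic stem cells grown in serum this pathway sustains self-renewal. OSMR is the partner that gp130 takes for oncostatin M and is a receptor of fibroblasts and other stromal cells. The arrays measured RNA only, and neither the receptor proteins nor the phosphorylation of STAT3 were measured.

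The values are log2 probe set intensities that the authors had normalized in 2 separate tables, so levels were compared within a table only. The number of arrays limits the precision. In the first table the 7 measured pluripotency markers had a mean of 11.06 to 11.60 over the 11 groups, and in the passage 10 table all 8 had a mean of 12.80 to 12.92 over the 4 groups. The mean of the fibroblast markers ran from 6.20 to 7.11 over the groups of the first table (21 genes) and from 7.56 to 8.71 at passage 10 (23 genes), and 2 of these genes lay below the first quartile of all probe sets in each table. Arrays correlated with their own group at a mean r of 0.977 to 0.998, except for passage 16 Gra-iPSC of mouse 2, where clone 3 had 0.921 and clones 1 and 2 had 0.960 and 0.955. On the array of clone 3 all 10 member probe sets brighter than the median probe set were lower than the mean of clones 1 and 2, by a median of 1.21 log2 units, and all 7 dimmer ones were higher, by a median of 1.05. Over all probe sets the same differences had medians of -0.33 among the brighter and 0.64 among the dimmer ones. All comparisons were also fitted without this array, and counts of called members without it stand beside those it moved in the comparisons reported. Every share of all probe sets given below is from the fit with all arrays of its table. Counts without this array thus have no share of their own and are not read as a result about the members.

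Origin was compared first, within mouse 2. The members that differed among the 4 origins at passage 4 were Lifr, Il6st, Osmr, Jak1, Stat3, Bcl3 and Pim3, while Socs3 and Pim1 did not pass the test. A moderated F-test in limma called 11 of the 17 member probe sets (64.7%) at passage 4, where 37.9% of all probe sets were called, and 12 without the array of passage 16 Gra-iPSC clone 3. At passage 16 it called 0 of 17, where 1.35% of all were called, with 3 of 17 at an unadjusted p under 0.05 and 20.8% of all. At passage 10, on the other platform, 3 of 23 member probe sets were called (Osmr, Jak1 and Pim3, 1 probe set each), where 25.8% of all were called. The share called among the members was thus above the share of all probe sets at passage 4 and below it at passage 10, and no test of these differences was made. Each origin was also set against the mean of the other 3. At passage 4 this called 5 of 17 member probe sets in TTF-iPSC (1 higher, 4 lower), where 19.6% of all were called, and 4 of 17 in B-iPSC (all higher), where 9.67% of all were. It called 4 of 17 in T-iPSC (1 higher, 3 lower), where 17.4% of all were, and 3 of 17 in Gra-iPSC (all higher), where 21.5% of all were. Without passage 16 Gra-iPSC clone 3 in the fit these counts were 7, 6, 4 and 6, with no share of all probe sets from that fit to set beside them. The median member difference was -0.21 in TTF-iPSC, 0.14 in B-iPSC, -0.09 in T-iPSC and 0.11 in Gra-iPSC, and that of all probe sets was 0.03, -0.05, 0.00 and -0.02. In the test among all 4 origins the count at passage 4 was 7 without TTF-iPSC clone 1, and that at passage 16 was 2 without Gra-iPSC clone 2.

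Passage was compared next. Averaged over the 4 origins of mouse 2, Bcl3 and Osmr rose from passage 4 to passage 16, and Socs3 and 1 probe set of Il6st fell. These were 4 of 17 member probe sets (23.5%), where 29.4% of all were called, and the count was 6 without passage 16 Gra-iPSC clone 3. The median change over the 17 was 0.04 log2 units, beside 0.05 over all probe sets. The passage change itself differed among the origins for 8 of 17 member probe sets of 6 genes (47.1%), where 31.6% of all were called, and for 10 without that array. In Gra-iPSC of mouse 1, 1 of 17 was called for passage, where 0.886% of all were called, and 2 without that array of mouse 2 in the fit.

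**Figure D1:**
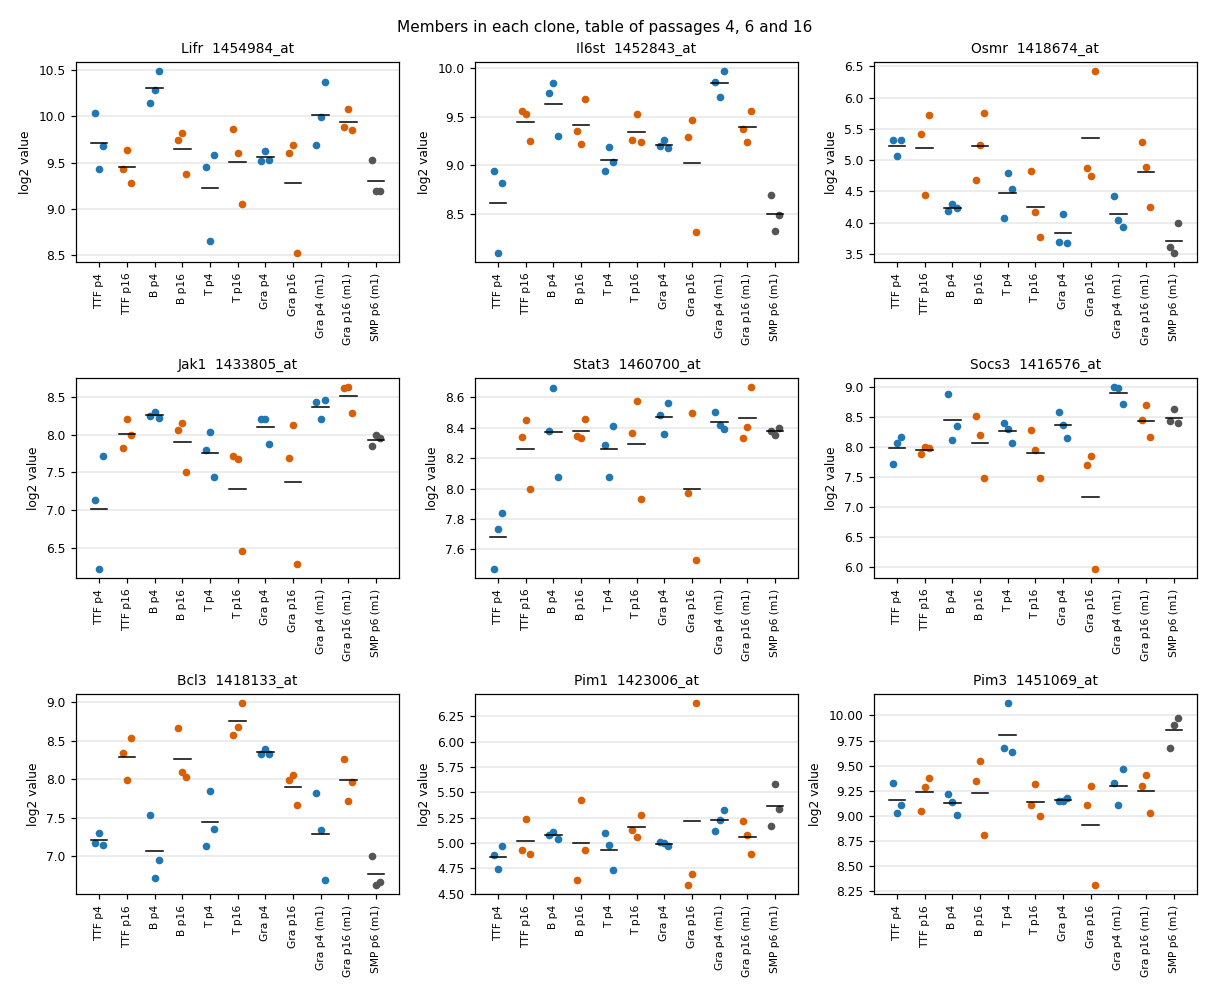
Deposited log2 values (vertical axes) of 1 probe set for each of the 9 genes in the 33 arrays of passages 4, 6 and 16, with groups along the horizontal axes. The probe set shown is the brightest that the F-test among origins called at passage 4, or the brightest of the gene where none was called. Each point is the array of 1 clone (blue passage 4, orange passage 16, grey passage 6), bars are group means, and m1 marks mouse 1. Bcl3 in passage 4 Gra-iPSC of mouse 2 lies above the passage 4 lines of the other origins, Stat3 in passage 4 TTF-iPSC lies below them, and clone 3 of passage 16 Gra-iPSC stands apart in Socs3, Osmr and Pim1.

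Lifr encodes the chain that binds LIF. Its brightest probe set, 1454984_at, was highest in passage 4 B-iPSC, with values of 10.15, 10.28 and 10.49 in the 3 clones. The passage 4 values were 10.04, 9.43 and 9.68 in TTF-iPSC, 9.45, 8.66 and 9.58 in T-iPSC and 9.52, 9.62 and 9.52 in Gra-iPSC. All 3 B-iPSC clones lay above every other passage 4 clone of mouse 2, while T-iPSC clone 2 was the lowest of these arrays. B-iPSC were 1.75-fold higher than the mean of the other origins (log2 difference 0.81 ± 0.21 SE, n = 3 clones a group, adjusted p = 0.016), and T-iPSC were 1.55-fold lower (-0.63 ± 0.21, adjusted p = 0.041). The B-iPSC call was lost without B-iPSC clone 2 or 3 (adjusted p up to 0.09). The T-iPSC call was lost without TTF-iPSC clone 1, T-iPSC clone 1 or 2, Gra-iPSC clone 1 or 2 or B-iPSC clone 2 or 3 (differences of -0.80 to -0.34, adjusted p up to 0.43). By passage 16 the means of this probe set were 9.45 ± 0.18 (SD) in TTF-iPSC, 9.65 ± 0.23 in B-iPSC, 9.51 ± 0.42 in T-iPSC and 9.27 ± 0.65 in Gra-iPSC, and no neighbouring groups in the order of the 11 means were free of overlap. The fibroblast markers were lowest in the B-iPSC (mean 6.20) and highest in the T-iPSC (7.07) at passage 4, and with their mean as a covariate the differences of this probe set were 0.43 ± 0.24 (adjusted p = 0.50) and -0.02 ± 0.31 (adjusted p = 0.99). The 11 endoderm markers, none of them below the first quartile, had a mean of 6.83 to 8.01 in the passage 4 B-iPSC clones and of 5.75 to 6.67 in the other passage 4 clones of mouse 2. In B-iPSC 7 of the 11 were called higher than in the other origins and 0 lower (median 1.06), and their part in the Lifr difference was not tested.

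A further Lifr probe set, 1425107_a_at, marked Gra-iPSC of mouse 2 instead. At passage 4 its values there were 7.66, 7.72 and 7.91, and the other passage 4 arrays of mouse 2 ran from 6.04 to 7.06. The 3 Gra-iPSC clones also lay above all 3 clones of every other group of the first table, the nearest being passage 16 Gra-iPSC of mouse 1 with a mean 0.89 lower. The difference from the other origins was 1.38 ± 0.28 (2.60-fold, adjusted p = 0.00066), and the dimmer probe set 1450207_at was also higher there, by 0.61 ± 0.13 (adjusted p = 0.0015). Both calls held with each array left out in turn (adjusted p up to 0.0068 and 0.037). The dimmer probe set was lower in T-iPSC (-0.47 ± 0.13, adjusted p = 0.014), a call lost without T-iPSC clone 2 or 3 (adjusted p up to 0.10) and with the fibroblast covariate (adjusted p = 0.17).

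The raised Lifr values of Gra-iPSC were not seen at passage 16. The probe set 1425107_a_at read 6.69, 6.50 and 4.98 at passage 16 in Gra-iPSC of mouse 2, below all 3 passage 4 clones, a fall of 1.71 ± 0.34 (3.26-fold, adjusted p = 0.00056). Without clone 3 the change was -1.17 (adjusted p = 0.0068), and with only the 2 groups in the fit it was no longer called (adjusted p = 0.082). In Gra-iPSC of mouse 1 the same probe set read 6.02, 6.66 and 6.46 at passage 4 and 7.20, 6.90 and 6.52 at passage 16, so the mice started apart and their passage changes had opposite signs. Gra-iPSC of mouse 2 were 1.38 ± 0.34 above those of mouse 1 at passage 4 (adjusted p = 0.013). The passage change of mouse 2 minus that of mouse 1 was -2.20 ± 0.48 (adjusted p = 0.013). The first of these was lost without mouse 1 clone 1 or mouse 2 clone 3 of passage 4 (adjusted p up to 0.066). The difference in passage change was lost without passage 16 clone 1 of mouse 1 (adjusted p = 0.051) and with only these groups in the fit (adjusted p = 0.097), and it was -1.66 (adjusted p = 0.027) without passage 16 clone 3 of mouse 2. In the comparison of the mice at passage 4, 3 of 17 member probe sets were called (7 without passage 16 clone 3 of mouse 2), where 6.46% of all were. The others were Bcl3 and Il6st 1460295_s_at, the latter lower in mouse 2 (-1.07 ± 0.26, adjusted p = 0.013), a call lost without clone 3 of either mouse (adjusted p up to 0.14) and with only these groups in the fit (adjusted p = 0.057). Of the 11 endoderm markers 4 were lower in mouse 2 and 0 higher in that comparison, and their part in it was not tested. In the comparison of their passage changes 1 of 17 was called, where 2.83% of all were. The probe set 1450207_at fell in Gra-iPSC of mouse 2 (-0.52 ± 0.16, adjusted p = 0.018, lost without passage 4 clone 1 and with only the groups compared). It rose in T-iPSC (0.49 ± 0.16, adjusted p = 0.04), a call lost without passage 4 clone 2 or 3 or any passage 16 clone of T-iPSC, with quantile normalization (adjusted p = 0.11) and with the fibroblast covariate (adjusted p = 0.14). The 3 Lifr probe sets correlated with each other over the 33 arrays at an r of 0.08 to 0.34, so no statement about 1 of them stands for the gene.

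At passage 10 Lifr did not pass the test in any origin. The means of 1454984_at were 9.59 ± 0.05 in TTF-iPSC, 9.58 ± 0.15 in B-iPSC, 9.61 ± 0.10 in T-iPSC and 9.73 ± 0.05 in Gra-iPSC. The 3 Gra-iPSC clones (9.77, 9.68 and 9.73) lay above those of T-iPSC but overlapped those of B-iPSC. The other Lifr probe sets had means of 6.26 to 6.43 and 5.80 to 6.06, with overlap between all neighbouring groups.

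Il6st encodes gp130, the chain that LIF shares with interleukin 6 and oncostatin M. At passage 4 its brightest probe set, 1452843_at, read 9.75, 9.84 and 9.30 in B-iPSC, 9.20, 9.26 and 9.18 in Gra-iPSC, 8.94, 9.19 and 9.04 in T-iPSC and 8.94, 8.10 and 8.81 in TTF-iPSC. Every B-iPSC clone lay above every other passage 4 clone of mouse 2. TTF-iPSC clone 1 was level with the lowest T-iPSC clone at 8.94, and the other TTF-iPSC clones lay below all other arrays of that passage. B-iPSC were 1.59-fold higher than the other origins (0.67 ± 0.18, adjusted p = 0.021) and TTF-iPSC 1.61-fold lower (-0.69 ± 0.18, adjusted p = 0.0096). The B-iPSC call was lost without B-iPSC clone 1 or 2 (adjusted p up to 0.17) and with the fibroblast covariate (0.55 ± 0.23, adjusted p = 0.27). The part of the endoderm markers, 7 of 11 of which were higher in these B-iPSC, was not tested for this or for the other B-iPSC differences at passage 4. The TTF-iPSC call was lost without TTF-iPSC clone 2 (-0.43, adjusted p = 0.20).

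The probe set 1460295_s_at, whose suffix means that its probes match more than 1 transcript, gave a wider range. It read 5.83, 6.20 and 5.13 in passage 4 B-iPSC and 5.61, 5.13 and 4.31 in Gra-iPSC, while TTF-iPSC and T-iPSC stayed between 3.98 and 4.37. B-iPSC were 2.35-fold above the other origins (1.23 ± 0.21, adjusted p = 0.00072), and this held with each array left out (adjusted p up to 0.024). TTF-iPSC and T-iPSC were lower by 0.76 ± 0.21 (adjusted p = 0.014) and 0.77 ± 0.21 (adjusted p = 0.012). The TTF-iPSC call was lost without TTF-iPSC clone 1 or 2 (adjusted p up to 0.074), and the T-iPSC call without T-iPSC clone 3 (adjusted p = 0.091) and with the fibroblast covariate (adjusted p = 0.38).

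From passage 4 to 16 this Il6st probe set fell where it had been high. At passage 16 it read 4.24, 4.01 and 4.39 in B-iPSC and 4.32, 3.81 and 4.38 in Gra-iPSC of mouse 2, and all 4 origins of mouse 2 had means between 4.17 and 4.27. The probe set was dim, with a mean of 4.67 over the 33 arrays. These passage 16 means lie below the first quartile of 4.49 for all probe sets. The fall was 1.51 ± 0.26 in B-iPSC (2.84-fold, adjusted p = 0.00098), without overlap between the passages. In Gra-iPSC of mouse 2 it was 0.85 ± 0.26 (adjusted p = 0.015). In Gra-iPSC of mouse 1 the values went from 5.93, 5.84 and 6.50 to 4.95, 5.04 and 4.58, a difference of -1.23 ± 0.26 (2.35-fold, adjusted p = 0.015). The mean change over the 4 origins was -0.58 ± 0.13 (adjusted p = 0.0018), and -0.60 without passage 16 Gra-iPSC clone 3. With the fibroblast covariate these were -1.30 ± 0.40 in B-iPSC (adjusted p = 0.24), -0.77 ± 0.29 in Gra-iPSC of mouse 2 (adjusted p = 0.057), -1.07 ± 0.37 in mouse 1 (adjusted p = 0.36) and -0.51 ± 0.17 for the mean (adjusted p = 0.061). The call of mouse 2 Gra-iPSC was also lost without passage 4 clone 1 or 2 or passage 16 clone 2 (adjusted p up to 0.13) and with only the groups compared (adjusted p = 0.20), and that of mouse 1 without passage 4 clone 3 or passage 16 clone 1 or 3 (adjusted p up to 0.11). The brightest Il6st probe set, 1452843_at, had B-iPSC means of 9.63 at passage 4 and 9.42 at passage 16. Its means were 9.21 then 9.02 in Gra-iPSC of mouse 2 and 9.84 then 9.39 in those of mouse 1. With all arrays in the fit none of these changes was called. The Il6st probe sets correlated with each other over the 33 arrays at an r of 0.155 to 0.53, so none of them stands for the gene.

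The brighter Il6st probe set moved in TTF-iPSC, from 8.94, 8.10 and 8.81 at passage 4 to 9.56, 9.52 and 9.25 at passage 16. This was a rise of 0.83 ± 0.23 (1.78-fold, adjusted p = 0.017) without overlap. It was lost without passage 4 clone 2 or passage 16 clone 1 or 2 (0.57 to 0.99, adjusted p up to 0.16), with only the groups compared (adjusted p = 0.10) and with the fibroblast covariate (adjusted p = 0.089). Within TTF-iPSC 2 of 17 member probe sets were called for passage, where 10.3% of all were. In B-iPSC 2 of 17 were called (8.97% of all), in T-iPSC 3 of 17 (16.7%) and in Gra-iPSC of mouse 2, 6 of 17 (34.5%). Without passage 16 Gra-iPSC clone 3 these counts were 5, 6, 3 and 4, with no share of all probe sets from that fit to set beside them. In Gra-iPSC of mouse 2 the median of all probe sets itself shifted by 0.16, beside -0.30 over the members. Both medians include the array of passage 16 clone 3, and neither is given without it.

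With all arrays in the fit, Il6st was the only member called between SMP-iPSC and passage 4 Gra-iPSC of the same mouse. All 3 of its probe sets were lower in SMP-iPSC, and these were the 3 of 17 member probe sets called, where 20.6% of all were called. The probe set 1452843_at read 8.69, 8.32 and 8.48 in SMP-iPSC and 9.86, 9.70 and 9.97 in Gra-iPSC (-1.35 ± 0.23, 2.54-fold, adjusted p = 0.00011). The probe set 1460295_s_at read 4.64, 4.42 and 4.16 against 5.93, 5.84 and 6.50 (-1.69 ± 0.26, 3.22-fold, adjusted p = 4.5e-05). The dim probe set 1421239_at was lower by 0.74 ± 0.20 (adjusted p = 0.0098, and 0.052 without SMP-iPSC clone 1). No SMP-iPSC clone overlapped a Gra-iPSC clone in any of the 3. In the same comparison 5 of 11 endoderm markers were lower in SMP-iPSC and 0 higher (clone means of 5.63 to 6.31 against 6.91 to 8.08), and 9 of 21 fibroblast markers were higher and 0 lower. The part of the endoderm markers in the Il6st differences was not tested. Without the array of passage 16 Gra-iPSC clone 3 of mouse 2 in the fit, 5 member probe sets were called, with Lifr 1454984_at and Pim3 1451069_at added.

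Origin and passage (6 against 4) differ together in that comparison and cannot be told apart. Against passage 16 Gra-iPSC, 4 of 17 were called, where 12.9% of all were called, and 5 without passage 16 Gra-iPSC clone 3 of mouse 2, with Lifr 1454984_at added. Il6st 1452843_at was again lower (-0.89 ± 0.23, adjusted p = 0.0085, and 0.061 without SMP-iPSC clone 2). At passage 10 Il6st did not pass the test in any origin, and the means of 1452843_at, at most 10.13, lay close together with overlap between all neighbouring groups.

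Osmr, the oncostatin M receptor chain, was a dim gene in these lines. Its brighter probe set, 1418674_at, had a mean of 4.59 over the 33 arrays, beside a first quartile of 4.49 for all probe sets. At passage 4 it read 5.32, 5.06 and 5.32 in TTF-iPSC, above every other clone of mouse 2. B-iPSC read 4.19, 4.30 and 4.23, T-iPSC 4.07, 4.80 and 4.54, and Gra-iPSC 3.69, 4.14 and 3.67. TTF-iPSC were 2.07-fold higher than the other origins (1.05 ± 0.30, adjusted p = 0.014, and 0.052 without TTF-iPSC clone 1). In these TTF-iPSC the fibroblast markers had a mean of 6.27, below that of T-iPSC (7.07) and Gra-iPSC (6.58), with 1 of 21 called higher and 5 lower, and the Osmr call stood with their mean as a covariate.

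At passage 10 the same probe set gave the widest difference among the members. It read 6.36, 6.30 and 6.36 in TTF-iPSC, 5.71, 5.37 and 5.65 in B-iPSC, 5.95, 5.18 and 5.42 in T-iPSC and 4.53, 4.58 and 4.64 in Gra-iPSC. TTF-iPSC lay above and Gra-iPSC below all other clones, while B-iPSC and T-iPSC overlapped. TTF-iPSC were 2.16-fold higher than the other origins (1.11 ± 0.13, adjusted p = 0.0022), 1 of 2 member probe sets of 23 called there, where 10.4% of all were called. Gra-iPSC were 2.34-fold lower (-1.23 ± 0.13, adjusted p = 7.4e-05), 1 of 5 called there, where 31.8% of all were called. B-iPSC and T-iPSC against the rest gave 0 of 23 called in limma, where 0.0397% and 0% of all were called. At an unadjusted p under 0.05 they gave 1 and 3 of 23, where 10.8% and 16.6% of all passed.

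The fibroblast markers too were highest in TTF-iPSC and lowest in Gra-iPSC at passage 10, with B-iPSC and T-iPSC overlapping. Their mean was 8.63 to 8.76 in the TTF-iPSC clones, 7.96 to 8.14 in B-iPSC, 7.86 to 8.37 in T-iPSC and 7.53 to 7.59 in Gra-iPSC. In TTF-iPSC 21 of the 23 markers were called higher than in the other origins, and in Gra-iPSC 18 of 23 were called lower. With their mean as a covariate the F-test among origins called no member at passage 10. Every member call of an origin against the others there was lost too, and pairs of origins were not examined with it. The Osmr differences with the covariate were 0.52 ± 0.37 for TTF-iPSC (adjusted p = 0.86) and -0.68 ± 0.35 for Gra-iPSC (adjusted p = 0.61). Origin and the marker mean differ together at passage 10 and cannot be told apart there. In bulk RNA more fibroblasts in a culture and more Osmr RNA in each iPSC cannot be told apart either.

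**Figure D2:**
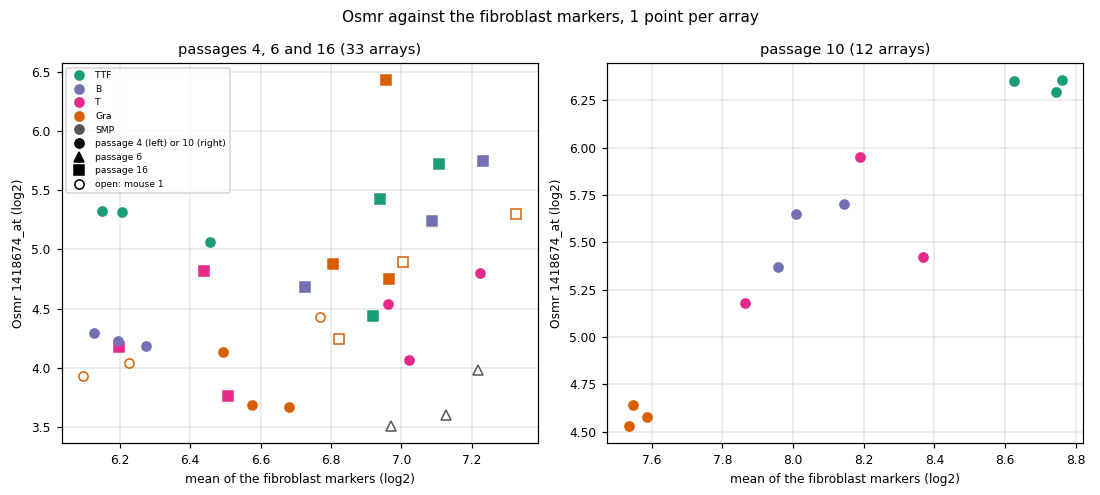
Log2 value of Osmr probe set 1418674_at (vertical axis) against the mean log2 value of the fibroblast markers (horizontal axis), 1 point per array, in the table of passages 4, 6 and 16 (left) and of passage 10 (right). Colours give the origin and open symbols mouse 1. At passage 10 the 3 TTF-iPSC arrays are highest and the 3 Gra-iPSC arrays lowest on both axes, while the passage 4 TTF-iPSC arrays have Osmr values of 5.06 to 5.32 at low marker means.

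With passage Osmr rose in Gra-iPSC of mouse 2, from 3.69, 4.14 and 3.67 to 4.88, 4.75 and 6.43. The passage 16 clones lay above all passage 4 clones, and the rise was 1.52 ± 0.37 (2.87-fold, adjusted p = 0.0029), or 0.98 (adjusted p = 0.041) without clone 3. With only these groups in the fit it was not called (adjusted p = 0.11). The rise of the dim probe set 1418675_at there (0.67 ± 0.24, adjusted p = 0.031) was lost without clone 3 (0.20, adjusted p = 0.46), without passage 4 clone 1 or 3, and with quantile normalization, only the groups compared or the fibroblast covariate (adjusted p of 0.079, 0.32 and 0.13). In B-iPSC the values of 1418674_at were 4.68, 5.24 and 5.75 at passage 16, not overlapping passage 4, a difference of 0.98 ± 0.37 that was not called (adjusted p = 0.092, and 0.027 without Gra-iPSC clone 3 of passage 16). TTF-iPSC (5.43, 4.44 and 5.72) and T-iPSC (4.82, 4.18 and 3.77) overlapped their passage 4 values. Averaged over the origins the rise was 0.56 ± 0.18 (adjusted p = 0.022), beside 11 of 21 fibroblast markers called higher and 2 lower, and with the markers as a covariate it was 0.22 ± 0.22 (adjusted p = 0.58). In mouse 1, SMP-iPSC (3.61, 3.51 and 3.99) were below passage 16 Gra-iPSC (5.29, 4.89 and 4.24) by 1.11 ± 0.37 (adjusted p = 0.045), a call lost without any SMP-iPSC clone or Gra-iPSC clone 1 or 2 (adjusted p up to 0.22) and with quantile normalization (adjusted p = 0.053).

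Jak1 encodes the kinase that gp130 and LIFR use most. At passage 4 the probe set 1433805_at read 7.13, 6.22 and 7.71 in TTF-iPSC, 8.25, 8.31 and 8.22 in B-iPSC, 7.80, 8.03 and 7.44 in T-iPSC and 8.21, 8.20 and 7.87 in Gra-iPSC. TTF-iPSC were 2.02-fold lower than the others (-1.02 ± 0.29, adjusted p = 0.014), with clone 2 far below the other clones and clone 3 within the range of T-iPSC. Without clone 2 the call was lost, and over the arrays left out the difference ran from -1.36 to -0.61 (adjusted p up to 0.26). The probe set 1433803_at was higher in B-iPSC (8.09, 8.08 and 7.85) than in any other passage 4 clone of mouse 2, by 0.69 ± 0.21 (adjusted p = 0.037). That call was lost without any B-iPSC clone, TTF-iPSC clone 1, T-iPSC clone 3 or Gra-iPSC clone 2 or 3 (adjusted p up to 0.17), and with the fibroblast covariate (0.51 ± 0.26, adjusted p = 0.42).

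No Jak1 probe set was called for passage within an origin of mouse 2. The probe set 1433804_at is shown by its arrays, because 1 of them lay far from the rest. In B-iPSC it read 6.89, 6.99 and 6.82 at passage 4 and 8.10, 8.31 and 8.40 at passage 16, and in TTF-iPSC 7.22, 7.50 and 7.23 and then 8.17, 8.08 and 8.02. The passages did not overlap in either origin. Passage 16 Gra-iPSC of mouse 2 read 8.31, 8.14 and 4.93. With clone 3 in the fit the difference in B-iPSC was 1.37 ± 0.47 (adjusted p = 0.066), and without it 1.37 ± 0.19 (adjusted p = 8e-05). The other Jak1 probe sets fell in mean in B-iPSC from passage 4 to 16. Their means were 8.01 then 7.23 for 1433803_at and 8.26 then 7.91 for 1433805_at. In TTF-iPSC both means rose, from 7.14 to 7.43 and from 7.02 to 8.01. The Jak1 probe sets correlated with each other in the first table at an r of 0.153 to 0.766. None of them stands for the gene. Against mouse 1, passage 16 Gra-iPSC of mouse 2 were lower in 1433805_at (-1.14 ± 0.35, adjusted p = 0.033) and in Socs3, 2 of 17 called where 18% of all were, and both calls were lost without clone 3 (adjusted p of 0.40 and 0.24), without passage 16 clone 1 or 2 of mouse 1, and with only these groups in the fit (adjusted p of 0.40 for each).

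At passage 10 the Jak1 probe set 1433803_at was higher in Gra-iPSC. It read 8.72, 8.70 and 8.79 there, above every clone of the other origins, which ran from 8.27 to 8.64. The difference was 0.37 ± 0.07 (1.29-fold, adjusted p = 0.0015) and held with each array left out (adjusted p up to 0.014), and with the fibroblast covariate it was 0.08 ± 0.18 (adjusted p = 0.91). The probe set 1433805_at had means of 8.69 to 8.92 with overlap between all neighbouring groups. The probe set 1433804_at had means of 4.15 to 4.62 in that table.

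Stat3 encodes the transcription factor that carries the LIF signal to the nucleus. Its bright probe set, 1460700_at, read 7.47, 7.73 and 7.84 in passage 4 TTF-iPSC. B-iPSC read 8.38, 8.66 and 8.07, T-iPSC 8.29, 8.08 and 8.41, and Gra-iPSC 8.49, 8.36 and 8.56. Every TTF-iPSC clone lay below every other passage 4 clone of mouse 2, and the difference was -0.69 ± 0.16 (1.61-fold, adjusted p = 0.0029). It held with each array left out (-0.76 to -0.58, adjusted p up to 0.03). By passage 16 TTF-iPSC read 8.34, 8.45 and 7.99, all above their passage 4 values, a difference of 0.58 ± 0.19 that was not called (adjusted p = 0.053, and 0.018 without passage 16 Gra-iPSC clone 3). The Gra-iPSC of mouse 2 read 7.97, 8.50 and 7.53 at passage 16. The 2 groups of mouse 1 Gra-iPSC and the SMP-iPSC had means of 8.38 to 8.47.

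At passage 10 this Stat3 probe set had means of 9.82 to 9.90 in the 4 origins and no origin stood apart. The probe set 1426587_a_at, named for Stat3 on that platform only, ran from 8.40 to 9.67 with TTF-iPSC at 9.67, 9.64 and 8.40, so that clones of 1 group spanned its whole range. The dim probe set 1424272_at did not pass the test in any comparison of either table, and over the 33 arrays it correlated with 1460700_at at r = -0.14.

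Socs3, the feedback inhibitor induced by STAT3, was among the members that did not pass the test of origin at passage 4. A match to TTCNNNGAA, the palindromic STAT motif, was found in the 250 bases before the start used for it. That stretch is printed because Socs3 is the textbook target of STAT3. The annotated Socs3 gene spans chr11:117966079-117970336, so the stretch lies within the gene and not before its outer end. The stretch lies at chr11:117969502-117969530 on the minus strand in GRCm38.p6 (RefSeq sequence), with the match in capitals, 154 to 146 bases before the start used.
Socs3: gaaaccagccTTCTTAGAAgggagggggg
The motif reads the same on both strands, and a match occurred in 1 of the 11 member windows of 250 bases before a start and in 7.02% of all 32851 such windows. A match is a stretch of letters and not a shown binding site.

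The Socs3 probe set 1416576_at read 7.71, 8.07 and 8.16 in passage 4 TTF-iPSC, 8.88, 8.11 and 8.34 in B-iPSC, 8.40, 8.30 and 8.07 in T-iPSC and 8.57, 8.36 and 8.14 in Gra-iPSC, so that all origins overlapped. Passage 16 values were 7.88, 8.0 and 7.98 in TTF-iPSC, 8.51, 8.20 and 7.48 in B-iPSC, 8.28, 7.95 and 7.49 in T-iPSC and 7.70, 7.84 and 5.97 in Gra-iPSC. Gra-iPSC were the only origin of mouse 2 whose passages did not overlap. Their fall was 1.19 ± 0.32 (2.28-fold, adjusted p = 0.0067), and it was lost without clone 3 (-0.59, adjusted p = 0.10) and with only these groups in the fit (adjusted p = 0.20). The mean change of the 4 origins was -0.49 ± 0.16 (1.40-fold, adjusted p = 0.024). It was -0.34 (adjusted p = 0.027) without Gra-iPSC clone 3, and it lost its call without T-iPSC clone 3 or B-iPSC clone 3 of passage 16 or B-iPSC clone 1 of passage 4 (adjusted p up to 0.057), with only the groups compared (adjusted p = 0.055) and with the fibroblast covariate (-0.41 ± 0.21, adjusted p = 0.23). In the order of the 11 groups passage 4 Gra-iPSC of mouse 1 were highest (8.99, 8.98 and 8.71) and did not overlap the next group.

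At passage 10 Socs3 was nearly level. The means of 1416576_at lay between 9.84 and 9.99, those of 1455899_x_at between 11.73 and 11.91 and those of 1456212_x_at between 10.51 and 10.66, and none was called in any origin.

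Bcl3 encodes a nuclear member of the IκB family that works with NF-κB and is a target of STAT3 in embryonic stem cells. Of the member probe sets, that of Bcl3 had the highest F value for the difference in passage change among the origins, with all arrays in the fit. At passage 4 its only probe set, 1418133_at, read 8.34, 8.40 and 8.33 in Gra-iPSC of mouse 2, and 7.18, 7.31 and 7.14 in TTF-iPSC, 7.54, 6.71 and 6.95 in B-iPSC and 7.14, 7.85 and 7.35 in T-iPSC. All 3 Gra-iPSC clones lay above every clone of the other origins. They were 2.16-fold higher (1.11 ± 0.20, adjusted p = 0.00022), with an adjusted p of up to 0.0033 when each array was left out.

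By passage 16 the means of the other 3 origins were 8.29, 8.26 and 8.75, beside 8.35 in passage 4 Gra-iPSC. TTF-iPSC read 8.34, 7.99 and 8.54, B-iPSC 8.66, 8.10 and 8.03 and T-iPSC 8.58, 8.68 and 8.99, each without overlap with its own passage 4 clones. The rises were 1.08 ± 0.24 in TTF-iPSC (2.11-fold, adjusted p = 0.0045), 1.20 ± 0.24 in B-iPSC (2.30-fold, adjusted p = 0.003) and 1.31 ± 0.24 in T-iPSC (2.47-fold, adjusted p = 0.00049). Gra-iPSC read 7.99, 8.05 and 7.66, all below their passage 4 clones, a difference of -0.45 ± 0.24 that was not called (adjusted p = 0.14). The passage change differed among the origins (F = 11.6, adjusted p = 0.00087, and 8.74 with adjusted p = 0.0029 without clone 3). All 3 rises held with each array left out (adjusted p up to 0.031, 0.029 and 0.0055). With the fibroblast covariate the T-iPSC rise was still called, and those of TTF-iPSC (0.57 ± 0.32, adjusted p = 0.39) and B-iPSC (0.62 ± 0.35, adjusted p = 0.67) were not. The fibroblast marker mean went from 6.27 to 6.99 in TTF-iPSC and from 6.20 to 7.02 in B-iPSC between these passages, but from 7.07 to 6.38 in T-iPSC.

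**Figure D3:**
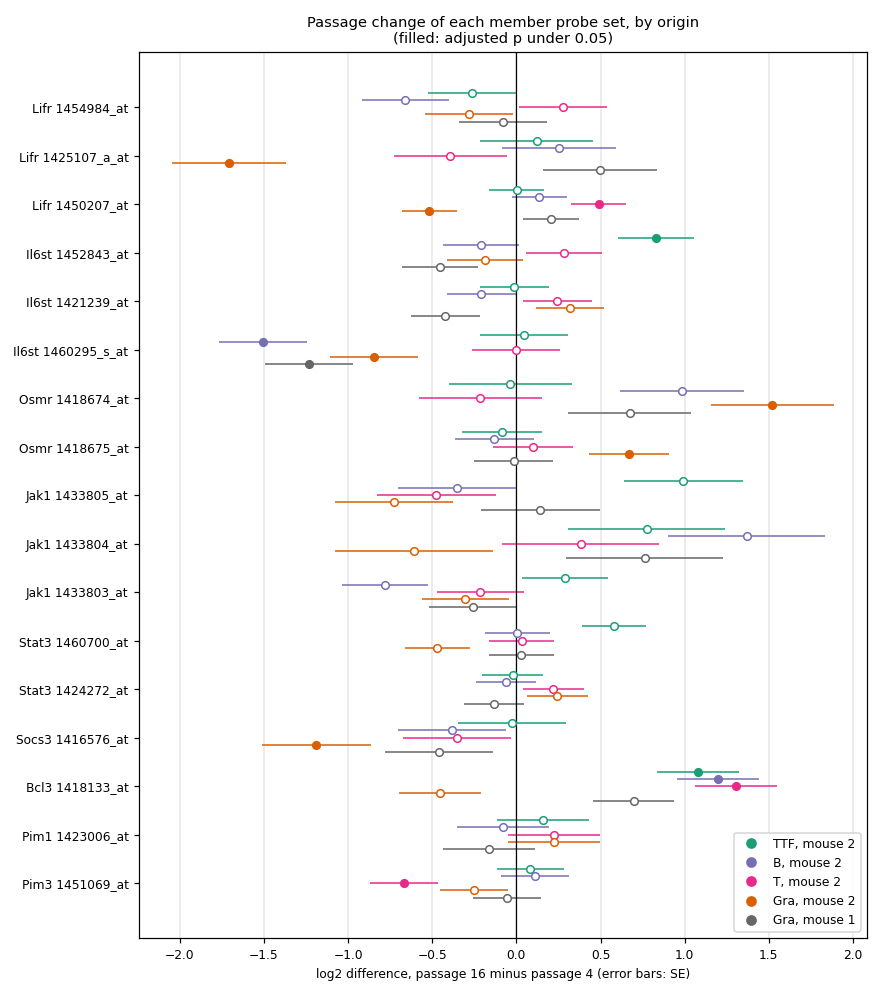
Log2 difference between passage 16 and passage 4 (horizontal axis) for each of the 17 member probe sets, by origin. Points are differences from the limma fit, error bars are SE with 3 clones a group, and filled points have an adjusted p under 0.05. Bcl3 is filled on the right for TTF-iPSC, B-iPSC and T-iPSC of mouse 2 but not for Gra-iPSC, and Lifr 1425107_a_at lies far to the left for Gra-iPSC of mouse 2 alone.

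Bcl3 in Gra-iPSC of mouse 1 did not share the high passage 4 level. It read 7.83, 7.34 and 6.70 at passage 4 and 8.26, 7.72 and 7.97 at passage 16. Mouse 2 was 1.06 ± 0.24 higher at passage 4 (2.09-fold, adjusted p = 0.0082), a call lost without mouse 1 clone 3 (adjusted p = 0.092). The mouse 1 passages overlapped and the difference of 0.70 ± 0.24 was not called (adjusted p = 0.20). SMP-iPSC read 7.0, 6.63 and 6.67, below passage 16 Gra-iPSC of mouse 1 by 1.22 ± 0.24 (adjusted p = 0.0013). Averaged over the origins of mouse 2 Bcl3 rose by 0.78 ± 0.12 (1.72-fold, adjusted p = 4.3e-05), a call kept in every alternative tried. It was the only member call of that comparison kept with the fibroblast covariate.

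At passage 16 no member was called when an origin was set against the mean of the others, where 0% of all probe sets were called for TTF-iPSC and B-iPSC, 2.26% for T-iPSC and 2.5% for Gra-iPSC. The members at an unadjusted p under 0.05 in limma numbered 0, 0, 2 and 4 of 17. Without passage 16 Gra-iPSC clone 3 in the fit 1 of 17 was called in T-iPSC, Osmr 1418674_at (-0.82 ± 0.25, adjusted p = 0.046, beside an adjusted p of 0.076 with that array). Between pairs of origins, Bcl3 was higher in T-iPSC than in Gra-iPSC (0.85 ± 0.24, adjusted p = 0.048), where 3.65% of all were called, and the call was lost without Gra-iPSC clone 3 (0.73, adjusted p = 0.14). At passage 10 Bcl3 read 9.20, 9.05 and 9.13 in TTF-iPSC, 9.15, 9.11 and 9.11 in B-iPSC, 8.99, 8.95 and 8.94 in T-iPSC and 8.83, 9.11 and 8.75 in Gra-iPSC. T-iPSC lay below B-iPSC and TTF-iPSC there, Gra-iPSC clone 2 lay among the latter, and no difference was called.

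Pim1 and Pim3 encode serine/threonine kinases that promote survival and are induced through STAT3. Pim3 probe set 1451069_at read 9.67, 10.12 and 9.63 in passage 4 T-iPSC, above all other passage 4 clones of mouse 2, which ran from 9.01 to 9.33. The difference was 0.66 ± 0.16 (1.58-fold, adjusted p = 0.0053). It was lost without T-iPSC clone 2 (0.51, adjusted p = 0.085) and with the fibroblast covariate (0.72 ± 0.27, adjusted p = 0.12). By passage 16 T-iPSC read 9.11, 9.32 and 9.0, below all their passage 4 values, a fall of 0.67 ± 0.20 (adjusted p = 0.023). That call was lost without passage 4 clone 2 or passage 16 clone 1 or 3 (adjusted p up to 0.14), with only the groups compared (adjusted p = 0.058) and with the fibroblast covariate (adjusted p = 0.11). SMP-iPSC (9.68, 9.91 and 9.97) lay within the range of passage 4 T-iPSC and above every Gra-iPSC clone of mouse 1, by 0.61 ± 0.20 against passage 16 (adjusted p = 0.045), a call lost without SMP-iPSC clone 2 or 3 or any passage 16 Gra-iPSC clone (adjusted p up to 0.18).

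At passage 10 Pim3 1451069_at was ordered from TTF-iPSC (10.45, 10.46 and 10.39) through B-iPSC (10.57, 10.59 and 10.52) and T-iPSC (10.66, 10.65 and 10.39) to Gra-iPSC (10.88, 10.81 and 10.85). Gra-iPSC lay above every other clone, by 0.33 ± 0.06 (1.25-fold, adjusted p = 0.0018), and this held with each array left out (adjusted p up to 0.012). TTF-iPSC were lower by 0.23 ± 0.06 (adjusted p = 0.04), a call lost without any TTF-iPSC or B-iPSC clone, T-iPSC clone 1 or 2, or Gra-iPSC clone 1 or 3 (adjusted p up to 0.13). The probe set 1437100_x_at was also higher in Gra-iPSC, by 0.20 ± 0.06 (adjusted p = 0.029, lost without Gra-iPSC clone 2 or 3). The dim probe set 1438956_x_at had means of 4.80 ± 0.10 (SD) in T-iPSC to 5.09 ± 0.12 in Gra-iPSC, with overlap between all neighbouring groups, and no origin was called against the mean of the others. Between pairs, T-iPSC were lower than Gra-iPSC in it (-0.29 ± 0.09, adjusted p = 0.041), where 22.3% of all were called. With the fibroblast covariate the Gra-iPSC differences were 0.03 ± 0.16 and 0.06 ± 0.18, and that of TTF-iPSC was 0.09 ± 0.17, on the other side of 0.

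Pim1 was called in no comparison of the first table. Its probe set 1423006_at lay between 4.58 and 5.58 on 32 of the 33 arrays and at 6.38 on passage 16 Gra-iPSC clone 3. At passage 10 it lay between 8.60 and 9.15 and was not called. A second Pim1 probe set named only on that platform, 1435458_at, read 10.97, 10.95 and 11.14 in Gra-iPSC, above all other clones, which ran from 10.65 to 10.87. The difference was 0.25 ± 0.06 (1.19-fold, adjusted p = 0.0098), lost without Gra-iPSC clone 3 (0.19, adjusted p = 0.079) and with the fibroblast covariate (0.21 ± 0.19, adjusted p = 0.74).

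**Figure D4:**
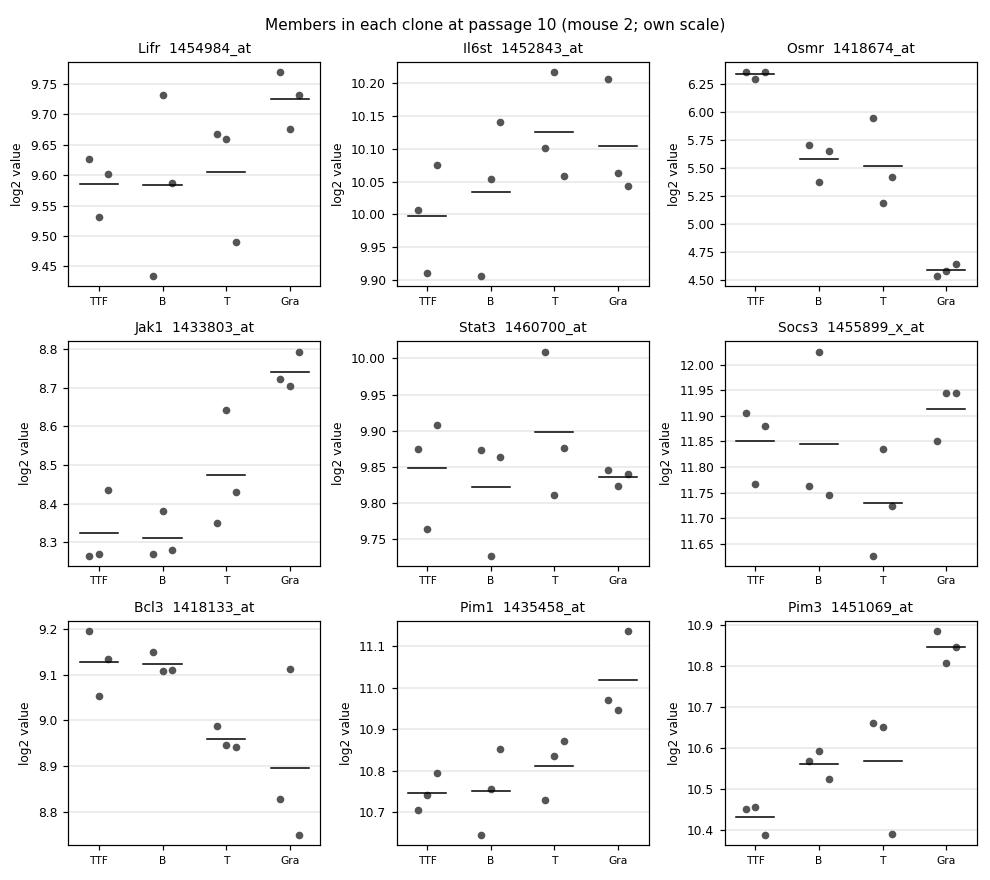
Deposited log2 values (vertical axes, own scale for each panel) of 1 probe set for each of the 9 genes in the 12 arrays of passage 10, by origin (horizontal axes). The probe set shown is the brightest that the F-test among origins called at passage 10, or the brightest of the gene where none was called. Each point is the array of 1 clone and bars are group means. Gra-iPSC are lowest in Osmr (4.53 to 4.64) and highest in Jak1 1433803_at, Pim1 1435458_at and Pim3 1451069_at, while Stat3, Il6st and Socs3 overlap between origins. The brighter Jak1 probe set 1433805_at, not shown, overlapped between neighbouring groups.

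The other genes of the pathway were counted by role, with 1 probe set a gene. None of them was examined with the fibroblast covariate or with each array left out, unlike the members. Values without passage 16 Gra-iPSC clone 3 of mouse 2, which enters the mean passage change, are given below for Lif only. Among 7 measured ligands and receptors (of 11 listed), Lif itself differed most at passage 4. Its probe set 1421207_at had means of 9.64 ± 0.12 (SD) in T-iPSC, 9.11 ± 0.48 in TTF-iPSC, 7.24 ± 0.40 in B-iPSC and 7.05 ± 0.14 in Gra-iPSC of mouse 2, and 9.35 ± 0.18 in SMP-iPSC against 6.85 ± 0.26 in passage 4 Gra-iPSC of mouse 1. T-iPSC were 1.84 ± 0.20 and TTF-iPSC 1.14 ± 0.20 above the other origins (adjusted p = 5.4e-07 and 0.00028), and SMP-iPSC were 2.50 ± 0.25 above Gra-iPSC of mouse 1 (adjusted p = 1.2e-07). By passage 16 the means of the 4 origins lay between 7.59 and 7.82, after falls of 1.82 ± 0.25 in T-iPSC (adjusted p = 1.6e-05) and 1.53 ± 0.25 in TTF-iPSC (adjusted p = 0.00016). Gra-iPSC of mouse 2 rose by 0.63 ± 0.25 (adjusted p = 0.047, and 0.27 without passage 16 clone 3). The fibroblast marker mean at passage 4 was 7.07 in T-iPSC, 6.27 in TTF-iPSC, 6.20 in B-iPSC and 6.58 in Gra-iPSC of mouse 2. It was 7.11 in SMP-iPSC and 6.36 in passage 4 Gra-iPSC of mouse 1. Lif was fitted neither with the fibroblast covariate nor with each array left out. At passage 10 Gra-iPSC were the highest, with a mean of 7.09 ± 0.14 beside 6.47 to 6.58 in the other origins (0.56 ± 0.08, adjusted p = 0.00031). The other Lif probe sets, 1421206_at and 1450160_at, had means of 3.02 to 3.90 in the first table and were called in none of these comparisons.

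Among the 10 measured kinases and transducers (of 13), 6 were higher in passage 10 Gra-iPSC and none was lower, where 36.3% of all genes were called. They included STAT proteins other than STAT3. Stat5a (0.95 ± 0.13), Stat5b (0.64 ± 0.13), Stat2 (0.63 ± 0.09) and Stat6 (0.38 ± 0.07) changed most, with adjusted p of 0.0024 or less. The median of the 10 was 0.25, beside -0.01 over all genes. Of these, Stat5b and Stat2 had been lower in passage 4 Gra-iPSC of mouse 2 (-0.81 ± 0.18 and -0.51 ± 0.17, adjusted p = 0.0016 and 0.033), on the other platform, where 1 of the 10 was called higher, 3 lower, and 22.6% of all genes were called.

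Of the 16 inhibitors, all measured, 8 were called for the mean passage change of mouse 2, 4 in each direction, where 29% of all genes were called. Pias2 (-0.62 ± 0.07, adjusted p = 1.5e-06) and Socs6 (-0.59 ± 0.12, adjusted p = 0.0006) fell, and Ptpn1 rose (0.44 ± 0.11, adjusted p = 0.0044). The median of the 16 was 0.03, beside 0.07 over all genes. Socs2 and Socs6, suppressors of cytokine signalling like Socs3, were higher in passage 4 Gra-iPSC (0.76 ± 0.15 and 0.78 ± 0.19) and lower in passage 4 TTF-iPSC (-0.89 ± 0.15 and -0.74 ± 0.19), with adjusted p between 0.00015 and 0.0084. They were 2 of the 3 inhibitors called in each of these comparisons, where 22.6% and 19.5% of all genes were called.

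Of the 14 other STAT3 targets, all measured, 5 were called in passage 4 Gra-iPSC of mouse 2, 2 higher and 3 lower. Bcl6, a transcriptional repressor, was lower by 2.52 ± 0.27 (adjusted p = 5.1e-07) and Gadd45g, a stress-response gene, by 1.69 ± 0.30 (adjusted p = 0.00023), while Gbx2, a homeobox gene that LIF maintains, was higher by 2.17 ± 0.41 (adjusted p = 0.00043). In passage 4 T-iPSC these 3 genes differed in the other direction (Bcl6 1.26 ± 0.27, Gadd45g 1.92 ± 0.30, Gbx2 -1.25 ± 0.41, adjusted p up to 0.037), with 5 of 14 called. Each origin enters the mean against which the others are set, so these comparisons share their arrays. Of all genes 22.6% were called in Gra-iPSC and 18.3% in T-iPSC, and no statement about the list as a whole was tested.

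For each member the 3 genes with the most similar pattern over the 33 arrays were found by Pearson correlation, as a description of arrays that share groups and clones. The closest to Lifr was Pcnp (r = 0.853, Spearman rho = 0.719, and r = 0.756 without the 2 arrays farthest from the median), before Zscan26 (r = 0.837) and Map7 (0.818). For Il6st it was Gins1 (0.868, 0.774 and 0.817), before Rab13 and Rap1gds1 (0.859 each), and for Osmr Ccdc102a (0.819, 0.809 and 0.747), before Slc4a3 (0.809) and Oas1c (0.785). For Jak1 it was Slc6a6 (0.930, 0.875 and 0.883), before Baz2a (0.920) and Ufc1 (0.918), and for Stat3 Abracl (0.822, 0.681 and 0.738), before Pkm (0.819) and Bag6 (0.783). For Socs3 it was Tmem192 (0.926, 0.860 and 0.832), before Ywhaz (0.922) and Dnaja2 (0.918), and for Bcl3 Tcof1 (0.873, 0.906 and 0.854), before Stc2 and Dnaaf5 (0.864 each). For Pim3 it was Ddt (0.887, 0.760 and 0.841), before Ost4 (0.876) and Fkbp9 (0.870). The value for Pim1 with 4930507D05Rik went from 0.775 (rho 0.412) to 0.336 without those arrays, and those with Pdx1 and Nts from 0.755 to 0.475 and from 0.737 to 0.227, so that they rested on them. Over the 12 arrays of passage 10 the closest genes gave an r of 0.732 for Pim3, 0.684 for Bcl3, 0.544 for Jak1, 0.272 for Osmr, 0.117 for Socs3, 0.05 for Lifr, -0.06 for Il6st and -0.348 for Pim1, and Abracl was not paired with Stat3 there.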

How the data were processed

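RNA of 45 iPSC cultures was hybridised to expression arrays. The values deposited by the authors are on a log2 scale and come from RMA, per the submitters' processing notes (version not given in the sources used here). They are 2 tables normalized separately, 33 arrays of passages 4, 6 and 16 and 12 of passage 10. No contrast crosses the tables.

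Symbols came from the platform annotation (18003 of 22690 probe sets with 1 symbol, 287 with several and 4400 with none, and 20393, 691 and 1606 at passage 10). A suffix of _s or _x marks probes shared with other transcripts. Each table was fitted over all 22690 probe sets with limma 3.58.1 (R 4.3.3), 1 mean per group, no filter, and Benjamini-Hochberg adjusted p under 0.05 as called, two-sided. The fit was tested on simulated data. Gene lists used the probe set with the highest mean and the same fit.

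Promoter windows came from RefSeq (GRCm38.p6). The members and lists were chosen with earlier results of these data known. Every member probe set is named, up to 4 called genes of each other list, and by correlation the 3 closest genes. Clone numbers were treated as names, and GEO's labels give no batch. Alternatives were 1 probe set per gene, quantile normalization, a filter on dim probe sets, only the groups compared, an intensity trend, the clone number as a block, a fibroblast covariate and each array left out.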

Additional observations from a re-analysis of the deposited data

Results flagged for a closer look

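These results are listed because an effect differed between groups by a test of the difference itself. The change from passage 4 to 16 differed among the 4 origins of mouse 2, by a moderated F-test in limma on all 33 arrays, for 8 member probe sets. The F values were 11.6 for Bcl3 1418133_at (adjusted p = 0.00087), 8.02 for Il6st 1460295_s_at (0.0046), 7.02 for Lifr 1425107_a_at (0.0082) and 6.47 for Lifr 1450207_at (0.011), and these calls held with each array left out. They were 5.11 for Osmr 1418674_at (adjusted p = 0.026), 4.99 for Stat3 1460700_at (0.028), 4.77 for Jak1 1433805_at (0.032) and 4.73 for Il6st 1452843_at (0.033), and each of these was lost without some single arrays, with adjusted p up to 0.056, 0.079, 0.15 and 0.12, and with only the groups compared. Those arrays were T-iPSC passage 4 clone 2 and Gra-iPSC passage 4 clones 1 and 3 for Osmr. For Stat3 they were TTF-iPSC passage 4 clone 1 and passage 16 clones 1 and 2, and Gra-iPSC passage 4 clones 1 and 3 and passage 16 clone 3. For Jak1 they were TTF-iPSC passage 4 clone 2 and passage 16 clones 2 and 3, and Gra-iPSC passage 4 clones 1 and 2. For Il6st they were TTF-iPSC passage 4 clone 2 and passage 16 clones 1 and 2, Gra-iPSC passage 4 clone 2, and B-iPSC passage 4 clones 1 and 2 and passage 16 clone 2.

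The passage change of Lifr 1425107_a_at in Gra-iPSC differed between the mice by -2.20 log2 units (mouse 2 minus mouse 1, adjusted p = 0.013).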

How the results depend on the processing

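Counts of called member probe sets moved as follows. With 1 probe set for each of the 9 genes they were 7 of 9 among origins at passage 4 (38.8% of all genes called), 5 of 9 for the difference in passage change (32.5%), 1 of 9 for Gra-iPSC of mouse 2 against mouse 1 at passage 4 (7.23%) and 0 of 9 for passage in Gra-iPSC of mouse 1 (0.999%). For SMP-iPSC against passage 4 Gra-iPSC the count was 5 with quantile normalization, 5 without dim probe sets and 7 with only the groups compared. With only the groups compared it was also 2 for passage in Gra-iPSC of mouse 1, 6 between the mice and 4 for the difference in passage change. With the fibroblast covariate it was 1 for the mean passage change, 0 for passage in mouse 1 and 0 among origins at passage 10. At passage 10 it was 5 without dim probe sets, 5 with an intensity trend and 5 with the clone number as a replicate block. The block ended none of the 76 single calls, and calls it may have added were followed only through these counts. The labels repeat the clone numbers at passages 4 and 16, and the main fit did not pair the arrays by them. Deviations from the group mean correlated above 0.1 between these passages in 6 of 15 lines (median 0.05, from -0.287 to 0.288). These correlations cannot show whether equal numbers mark the same line. The causes were not tested. With each array left out the counts ran from 7 to 12 at passage 4, 0 to 2 at passage 16, 3 to 4 at passage 10, 3 to 6 for the mean passage change, 5 to 12 for its difference among origins, 0 to 2 for mouse 1, 3 to 5 for SMP-iPSC and 1 to 7 between the mice. Passage in mouse 1 gave 0 without passage 4 clone 3 or passage 16 clone 1 or 3, and 2 without passage 16 Gra-iPSC clone 3 of mouse 2. The mice differed in 1 probe set without passage 4 clone 3 of either mouse, and in 7 without passage 16 clone 3 of mouse 2. The difference in passage change gave 5 without passage 16 TTF-iPSC clone 2 or passage 4 Gra-iPSC clone 1. Of 76 single results, 31 lost their call with the fibroblast covariate and 1 changed sign, Pim3 1451069_at in TTF-iPSC at passage 10 (0.0888). Quantile normalization ended 3 calls, only the groups compared 18 of 66, and the intensity trend and the block none.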
